A study of Mus musculus with 6 samples.

Results

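The genes described here encode carriers of sugars, amino acids, monocarboxylates and a few related solutes in TKPTS cells, a mouse kidney proximal tubule cell line, with and without overexpression of the forkhead transcription factor HNF3α (gene symbol Foxa1). They were chosen by name, from the genes in the table, in the solute carrier families Slc1, Slc2, Slc5, Slc6, Slc7, Slc16, Slc38 and Slc43. A gene was taken if its name was the family name followed by the letter a and a number only. Family genes whose names end in a further letter, or that the table does not hold, are not included. The rule also left out 10 names (Slc2a2, Slc5a1, Slc5a2, Slc6a18, Slc6a19, Slc7a2, Slc7a7, Slc7a8, Slc7a9 and Slc7a11). This gave 70 of the 29595 genes in the table. The rule uses gene names and no expression value, but the carriers were chosen with earlier results of these data known. Of the 70 carriers, 47 had counts high enough to be tested, and 23 had too few. The carriers were placed in 10 lists by substrate.

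The libraries came from TKPTS cells harvested 24 hours after transfection. In the Hnf3a group (3 libraries) the plasmid was pcDNA3.1 carrying Hnf3a with a Flag tag, and in the pcDNA group (3 libraries) it was the Flag plasmid with no insert. Both groups were the same immortalised line, which was cultured in medium with serum and insulin, and both carried a plasmid. In the paper's general protocol, transfected cells were moved to serum-free medium, and the medium of the sequenced cells between transfection and harvest is not stated. The transfection was transient, so each value is an average over cells that took up the plasmid and cells that did not. The labels number the libraries but do not say whether they came from separate cultures, so the p-values measure only the spread between these libraries, which may be technical.

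Solute carriers move small molecules across membranes, either down their own gradient, as the glucose carriers of the Slc2 family do, or coupled to sodium or protons. In the kidney, proximal tubule cells take filtered glucose and amino acids back from the lumen through sodium-coupled carriers and release them to the blood through other carriers. Cells in culture lean on a partly different set, with GLUT1 for glucose, amino acid exchangers, and the proton-coupled carriers MCT1 and MCT4 for lactate.

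The total estimated count ranged from 60473818 to 71154667 per library. Foxa1 was at 304.6 FPKM in the Hnf3a group and 9.66 FPKM in the pcDNA group, so the labels matched the plasmid. FPKM is the number of fragments per kilobase of transcript, scaled to library size. Of 8 proximal tubule markers written down for a check of the label, 5 had values, 4 were tested and none passed edgeR's quasi-likelihood test at an adjusted p of 0.05. Their summed level was low, between 4.25 and 6.52 CPM (counts scaled to library size), with Aqp1 the highest of the 5 and the glucose carrier Slc5a2 at or under the floor of 12 counts in all 6 libraries. Lrp2 and Cubn, the endocytic receptors that define the proximal tubule, had 17 to 58 counts. The epithelial markers Krt8, Krt18, Epcam, Cdh1 and Cdh2 together had 1588 to 1631 CPM in the Hnf3a libraries and 1499 to 1522 CPM in the pcDNA libraries, and edgeR called Krt18 and Cdh2 higher (adjusted p = 0.00148 and 0.0468). The 5 endothelial markers together had 2.53 to 2.63 CPM in the Hnf3a libraries and 3.79 to 4.99 CPM in the pcDNA libraries. Cdh5 was called lower (edgeR adjusted p = 0.000821). Tek was called higher, with 11, 15 and 16 counts in Hnf3a replicates 1 to 3 and 0 in each pcDNA library. It could be tested only through its Hnf3a counts, which lie near the floor of 12, so its call is no support for a rise. Of 5 red blood cell markers, at 0.770 to 1.52 and 0.0614 to 1.37 CPM, none was called. The part of these markers in the carrier values was not tested. Hnf3a replicates 2 and 3 stood apart from the other 4 libraries in RNA of fibroblast genes, and a few low carriers described last were also higher in these 2 libraries.

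Carrier RNA was concentrated in a few genes. Slc38a2, Slc2a1, Slc16a3, Slc16a1 and Slc7a5 held 65.8% of the summed FPKM of all 70 carriers. A mean of at least 10 FPKM was reached by 13 carriers, 11 lay from 1 to 10 FPKM, and 46 lay under 1 FPKM. In counts, 41 carriers were above the floor in all 6 libraries, 10 in some, and 19 in none. The floor of 12 counts stands for about 3 sequenced fragments, which is 0.168 to 0.199 CPM over the 6 libraries, and it covers counting error only. By substrate, neutral amino acid carriers held 41.7% of the summed carrier FPKM, monocarboxylate carriers 20.9%, hexose carriers 19.4% and cationic amino acid carriers 7.42%. In bulk libraries, fewer cells of a type and less RNA per cell cannot be told apart, and this holds for every difference given here.

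**Figure D1:**
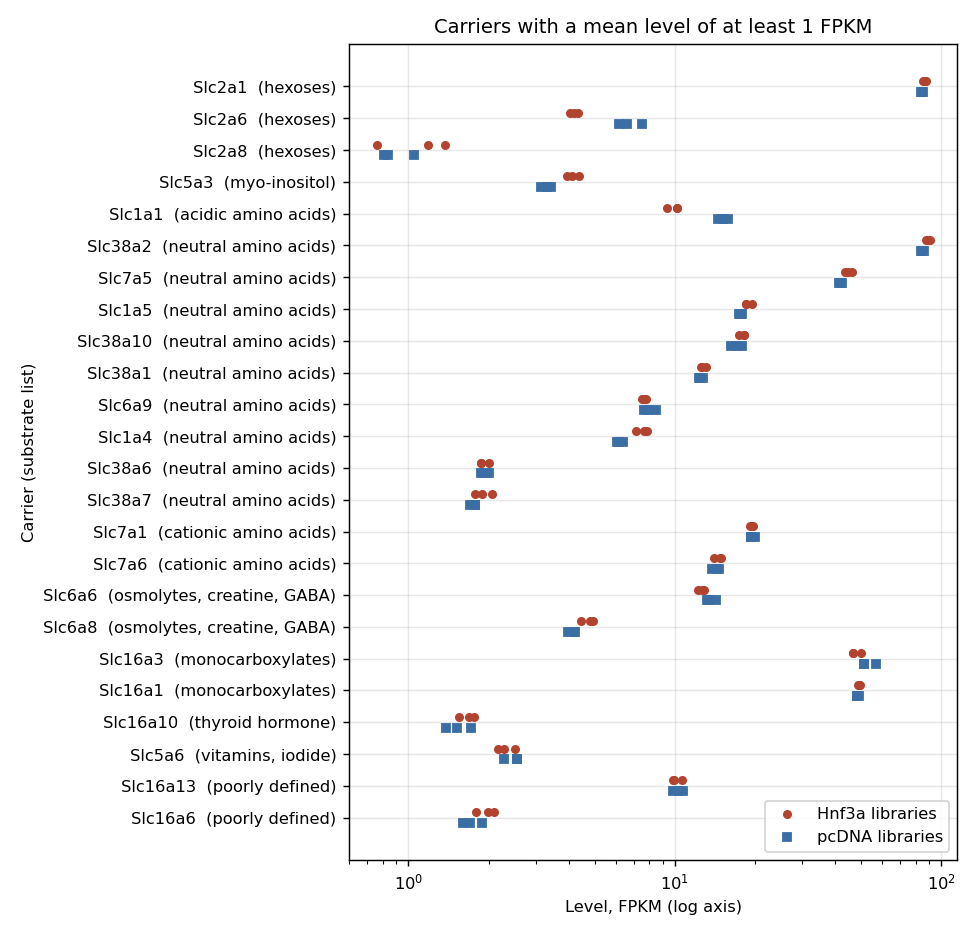
Level in FPKM (log axis) of the 24 carriers with a mean of at least 1 FPKM, in each of the 3 Hnf3a libraries (circles) and 3 pcDNA libraries (squares), with the substrate list in brackets. For most carriers the groups lie close together, while the circles of Slc1a1 and Slc2a6 lie to the left of the squares and those of Slc5a3 and Slc1a4 to the right.

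The main comparison asked which carriers differed between the Hnf3a and pcDNA groups. In all, 5 carriers passed an adjusted p of 0.05 in edgeR's quasi-likelihood test. The carriers Slc1a1, Slc2a6 and Slc6a14 were lower in the Hnf3a group, and Slc5a3 and Slc1a4 were higher. These are 5 of 47 tested carriers, or 10.6%, where 3.17% of all 17824 tested genes were called. Because the carriers were chosen with earlier results of these data known, the shares given here are a description only. The 3 lower carriers are 6.38% of those tested, beside 2.13% of all genes, and the 2 higher ones are 4.26%, beside 1.04% of all genes. Among 200 tested solute carrier genes outside these lists, 8 were called, or 4.0%, of which 7 were lower and 1 was higher. In counts scaled to library size, the groups did not overlap for 14 of the 47 carriers (29.8%), beside 18.9% of all tested genes and 29.0% of the other solute carrier genes. The median log2 fold change of the tested carriers was 0.06, with 29 above 0 and 18 below, and that of all tested genes was 0.00085. The 5 called carriers fell in 4 of the 10 lists.

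**Figure D2:**
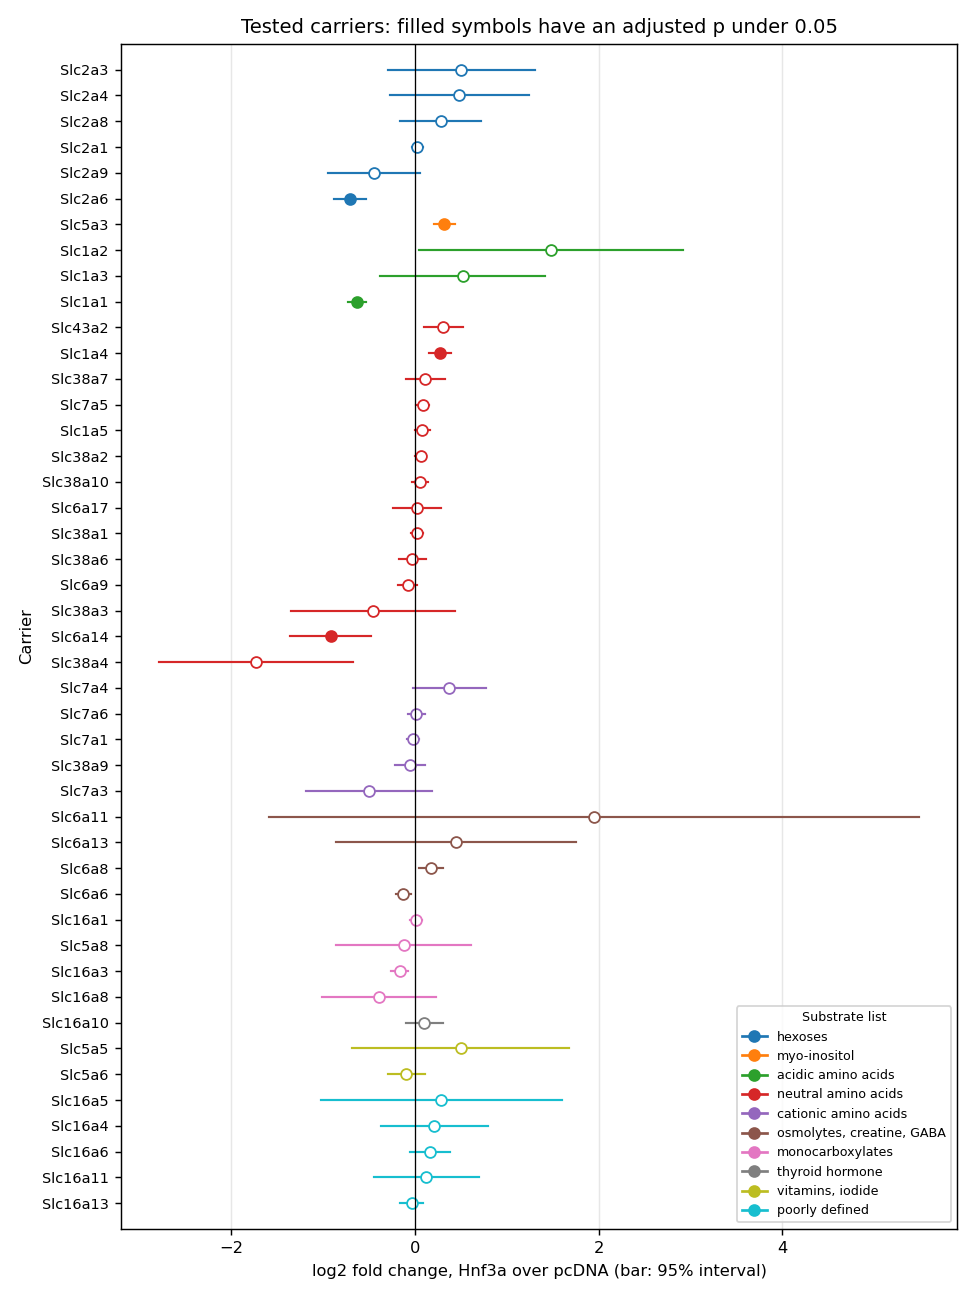
Log2 fold change of the Hnf3a over the pcDNA group for 45 of the 47 tested carriers, coloured by substrate list, with 95% intervals as bars; filled symbols passed an adjusted p of 0.05. The 5 filled symbols lie between -0.91 and 0.32, and the widest bars belong to low carriers such as Slc6a11 and Slc1a2.

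Among the hexose carriers, 1 of 6 tested genes fell and none rose, and the main carrier of the list did not pass the test. The list has 10 members. Slc2a6 (ENSMUSG00000036067), which encodes GLUT6, a glucose carrier held on internal membranes, lies on the minus strand of chromosome 2 (GRCm38, 27021363 to 27027998), has 7 exons in its longest transcript and overlaps no other annotated gene. Its level was 4.02, 4.32 and 4.17 FPKM in Hnf3a replicates 1 to 3 and 7.51, 6.17 and 6.60 FPKM in pcDNA replicates 1 to 3. All Hnf3a libraries were below all pcDNA libraries. Slc2a6 fell by 38.6% (log2 fold change -0.70, SE 0.079, edgeR adjusted p = 0.000141), and it stayed past the threshold under all 17 alternatives.

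Slc2a1 encodes GLUT1, the basal glucose carrier of most cells in culture. It stood at 87.5, 85.4 and 86.9 FPKM in the Hnf3a libraries and at 83.7, 84.7 and 85.2 FPKM in the pcDNA libraries. In FPKM the lowest Hnf3a library was just above the highest pcDNA library. The fitted ratio of the Hnf3a to the pcDNA group was 1.02 with a 95% interval from 0.976 to 1.06 (edgeR adjusted p = 0.786). Because Slc2a1 holds most of the list, the summed hexose carrier level averaged 92.5 ± 1.22 FPKM across the Hnf3a libraries and 92.8 ± 0.529 FPKM across the pcDNA libraries (SD, n = 3 each). Slc2a8, an intracellular hexose carrier, was at 0.760 to 1.38 FPKM over the 6 libraries, and Slc2a9, Slc2a4 and Slc2a3 were lower. None of these 4 passed the test. Slc2a5, a fructose carrier, Slc2a10 and Slc5a9 were at or under the floor in all libraries, and Slc5a10 reached at most 19 counts.

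The myo-inositol list has 2 members, and the only one tested rose. Slc5a3 (ENSMUSG00000089774) encodes SMIT1, the sodium-coupled carrier that loads cells with the osmolyte myo-inositol. The gene is on the plus strand of chromosome 16 (GRCm38, 92058322 to 92087473) with 2 exons. Its level was 4.10, 3.94 and 4.35 FPKM in the Hnf3a libraries and 3.42, 3.14 and 3.30 FPKM in the pcDNA libraries. Every Hnf3a library was above every pcDNA library. The increase was 24.9% (log2 fold change 0.32, SE 0.053, edgeR adjusted p = 0.00352). Slc5a3 overlaps the mitochondrial ribosomal gene Mrps6 and Gm49711 on the same strand, so reads of these genes may have been split between them and the value of Slc5a3 is uncertain to that extent. Mrps6 itself was at 14.5 ± 0.879 FPKM in the Hnf3a group and 13.5 ± 0.656 FPKM in the pcDNA group (SD, n = 3), with a log2 fold change of 0.09 (edgeR adjusted p = 0.641). Slc5a3 was called in 14 of 17 alternatives and missed the threshold in the 3 limma fits on FPKM, with adjusted p up to 0.092. The proton-coupled myo-inositol carrier Slc2a13 was under the floor throughout, with counts of 0, 7 and 7 across the Hnf3a replicates and 0 in each pcDNA library.

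Among the acidic amino acid carriers, 1 of 3 tested genes fell, and it had the smallest adjusted p of the 47 tested carriers. Slc1a1 (ENSMUSG00000024935) encodes EAAT3, the sodium-coupled carrier of glutamate, aspartate and cysteine, which takes up acidic amino acids across the brush border of the proximal tubule. The gene is on the plus strand of chromosome 19 (GRCm38, 28835049 to 28913960) with 12 exons in its longest transcript, and overlaps Gm5822 and 4430402I18Rik on the other strand, whose reads cannot be told apart from its own if strand was not used in counting. Its level was 10.1, 9.34 and 10.2 FPKM in the Hnf3a libraries and 15.2, 14.5 and 15.9 FPKM in the pcDNA libraries. The groups stood well apart, with a gap larger than the range within either. Slc1a1 fell by 35.2% (log2 fold change -0.63, SE 0.044, edgeR adjusted p = 2e-06). It was called under all 17 alternatives, with log2 fold changes from -0.66 to -0.57.

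Slc1a1 held 99.1% of the FPKM of its list, so the summed acidic carrier level followed it, at 10.2, 9.51 and 10.4 FPKM in Hnf3a replicates 1 to 3 and 14.6 to 15.9 FPKM over the pcDNA libraries. The glial glutamate carrier Slc1a3 (GLAST) was at 0.0615 ± 0.0128 FPKM in the Hnf3a group and 0.0421 ± 0.0198 FPKM in the pcDNA group (SD, n = 3), and did not pass the test (edgeR adjusted p = 0.679). Slc1a6 had at most 6 counts. The remaining member, Slc1a2, was uneven among the Hnf3a libraries and is described last.

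**Figure D3:**
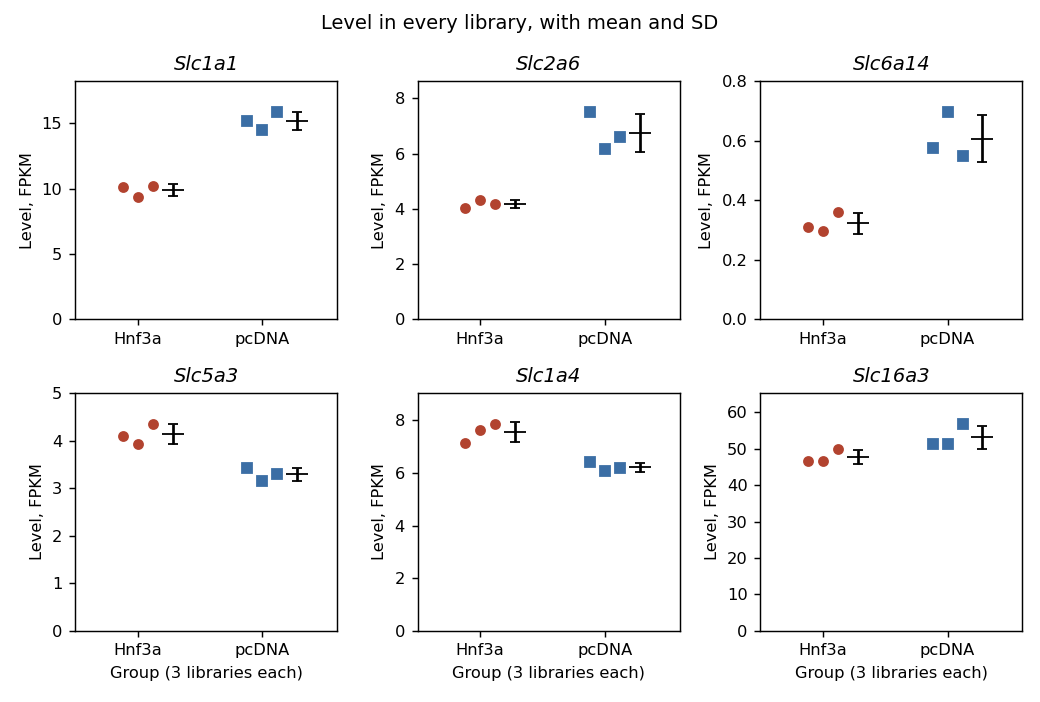
Level in FPKM, on axes that start at 0, of the 5 called carriers and of Slc16a3 in every library, with the mean and SD of each group of 3 libraries as a bar. The groups do not overlap in any panel; Slc1a1, Slc2a6 and Slc6a14 are lower in the Hnf3a group, Slc5a3 and Slc1a4 are higher, and Slc16a3 is lower by less and missed the threshold.

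Neutral amino acid carriers form the longest list, with 20 members and 14 tested, of which 1 rose and 1 fell. Slc1a4 (ENSMUSG00000020142) encodes ASCT1, a sodium-dependent exchanger of alanine, serine, cysteine and threonine. The gene is on the minus strand of chromosome 11 (GRCm38, 20302180 to 20332713), has 8 exons in its longest transcript and overlaps no other annotated gene. Its level was 7.15, 7.63 and 7.87 FPKM in the Hnf3a libraries and 6.40, 6.06 and 6.18 FPKM in the pcDNA libraries. All Hnf3a libraries were higher, by more than the range within the pcDNA group. Slc1a4 rose by 20.8% (log2 fold change 0.27, SE 0.056, edgeR adjusted p = 0.0154). The call was lost when any of 4 libraries was left out: edgeR's adjusted p became 0.084 on leaving out Hnf3a replicate 2, 0.0541 for Hnf3a replicate 3, 0.101 for pcDNA replicate 2 and 0.0647 for pcDNA replicate 3. It was called in 9 of the 17 alternatives.

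Slc6a14 (ENSMUSG00000031089) encodes ATB0,+, a sodium- and chloride-coupled carrier of both neutral and cationic amino acids. It lies on the plus strand of the X chromosome (GRCm38, 21714896 to 21742355) with 14 exons, and the small gene Gm25553 lies within it on the same strand. Slc6a14 was a low gene, at 0.310, 0.295 and 0.361 FPKM in the Hnf3a libraries and 0.576, 0.696 and 0.549 FPKM in the pcDNA libraries. In counts this was 78, 81 and 92 against 134, 176 and 138, well above the floor and without overlap. It fell by 47.0% (log2 fold change -0.91, SE 0.20, edgeR adjusted p = 0.025). Of 16 alternatives, 6 kept the call. Leaving out 1 library gave edgeR adjusted p of 0.0598 for Hnf3a replicate 1, 0.122 for Hnf3a replicate 2, 0.0806 for pcDNA replicate 1, 0.146 for pcDNA replicate 2 and 0.056 for pcDNA replicate 3, with log2 fold changes between -0.98 and -0.80.

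The promoters of these 2 genes are shown because, of the 5 called carriers, they were the ones with a match to any of 4 motifs searched on both strands. Each run is 260 bases, from 250 before to 10 after the RefSeq start (GRCm38.p6), read 5′ to 3′ on the strand of the gene, at chr11:20332704-20332963 (minus) for Slc1a4 and chrX:21714650-21714909 (plus) for Slc6a14, with the matches in capitals.
Slc1a4: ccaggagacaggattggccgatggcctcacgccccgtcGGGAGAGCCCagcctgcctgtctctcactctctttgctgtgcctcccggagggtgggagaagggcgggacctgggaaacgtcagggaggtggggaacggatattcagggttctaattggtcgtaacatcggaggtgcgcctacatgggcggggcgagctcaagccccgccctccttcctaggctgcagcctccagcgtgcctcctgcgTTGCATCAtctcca
Slc6a14: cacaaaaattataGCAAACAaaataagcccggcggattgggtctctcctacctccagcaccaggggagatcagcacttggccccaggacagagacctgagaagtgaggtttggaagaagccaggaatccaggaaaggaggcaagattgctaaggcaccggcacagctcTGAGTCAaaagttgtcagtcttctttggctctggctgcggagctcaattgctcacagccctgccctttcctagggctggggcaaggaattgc
The forkhead words searched were TGTTTAC and TGTTTGC, each also with A in place of the first G. They occurred in 12.2% of 32851 such windows of all genes and in 8 of the 68 windows of 50 carriers (11.8%). In Slc6a14 the match is GCAAACA, which starts 237 bases before the start of the gene. The AP-1 word TGANTCA, found in 7.03% of all windows, matched Slc6a14 82 bases before its start. The amino acid response word TGATGNAA, found in 3.59% of all windows, matched Slc1a4 across its start. The NF-κB motif was found in 9.09% of all windows and in Slc1a4, where it starts 212 bases before the gene. None of the 4 motifs matched the windows of Slc1a1, Slc2a6 or Slc5a3. A match describes letters in a window and is not a measured binding site.

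The abundant neutral carriers differed by little. Slc38a2 (SNAT2), the sodium-coupled carrier that cells raise when amino acids are scarce, was the highest of the 70 carriers, at 89.1 ± 1.42 FPKM in the Hnf3a group and 84.7 ± 1.22 FPKM in the pcDNA group (SD, n = 3). Slc7a5 (LAT1), which exchanges large neutral amino acids such as leucine, was at 44.8 ± 1.35 and 41.9 ± 0.544 FPKM (SD, n = 3). Slc1a5 (ASCT2), a glutamine carrier, was at 18.8 ± 0.564 and 17.7 ± 0.238 FPKM (SD, n = 3). For these 3 genes the Hnf3a libraries were all above the pcDNA libraries, but the differences did not pass the test. Their log2 fold changes were 0.06, 0.09 and 0.08, with edgeR adjusted p of 0.297, 0.258 and 0.338, and the upper bounds of their 95% intervals were 0.12, 0.16 and 0.16 on the log2 scale.

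Slc43a2 (LAT4), which carries leucine and phenylalanine down their gradients, was at 0.847, 0.916 and 0.916 FPKM in the Hnf3a libraries and 0.681, 0.675 and 0.788 FPKM in the pcDNA libraries. The groups did not overlap, but the log2 fold change of 0.31 missed the threshold (edgeR adjusted p = 0.14). The summed neutral carrier level averaged 204.6 ± 1.67 FPKM across the Hnf3a libraries and 194.2 ± 2.24 FPKM across the pcDNA libraries (SD, n = 3 each). Slc38a2 and Slc7a5 together made up most of that gap.

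Slc38a4 (SNAT4) had the lowest log2 fold change of the tested carriers, at very low counts. Its counts were 15, 14 and 12 in Hnf3a replicates 1 to 3 and 52, 57 and 19 in pcDNA replicates 1 to 3. The Hnf3a libraries were all lower, at or barely above the floor, and pcDNA replicate 3 was close to them. The log2 fold change came to -1.72, SE 0.49 (edgeR adjusted p = 0.0843). Without pcDNA replicate 3 it was -2.09 and was called (edgeR adjusted p = 0.0325), and DESeq2's Wald test on all libraries also called it (adjusted p = 0.0419). These were the only 2 of 15 alternatives that called Slc38a4. The fit without pcDNA replicate 3 drops the pcDNA library nearest the Hnf3a values, so it gives no separate support. The family members Slc38a1 and Slc38a2 lie on the same chromosome, 15, 44.5 kb apart, both on the minus strand, and differed in level, at 12.6 and 86.9 FPKM over all 6 libraries.

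The other tested neutral carriers did not pass the test either. Slc38a10 and Slc38a1 were at 16.3 to 18.2 and 12.3 to 13.1 FPKM over the 6 libraries, and the glycine carrier Slc6a9 (GlyT1) was at 7.53 to 8.47 FPKM. Slc38a6, Slc38a7, Slc6a17 and Slc38a3 were at 2.06 FPKM or less in every library. Slc43a1, Slc6a15, Slc7a10, Slc6a7, Slc38a8 and Slc6a5 were at or under the floor in all libraries and were not tested.

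No cationic amino acid carrier passed the test. Slc7a1 (CAT1), the main uptake route for arginine and lysine in many cells, was at 19.4 ± 0.201 FPKM in the Hnf3a group and 19.6 ± 0.426 FPKM in the pcDNA group (SD, n = 3). Its ratio was 0.988 with a 95% interval from 0.944 to 1.03 (edgeR adjusted p = 0.891). Slc7a6 (y+LAT2), which exchanges cationic for neutral amino acids, was at 14.5 ± 0.494 and 14.3 ± 0.444 FPKM (SD, n = 3), with a ratio of 1.01 and an interval from 0.953 to 1.08 (edgeR adjusted p = 0.918). Slc38a9, the lysosomal arginine sensor, Slc7a4 and Slc7a3 were tested at under 1 FPKM, and Slc7a14 and Slc7a15 were under the floor in all libraries.

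In the list of osmolyte, creatine, GABA and monoamine carriers, none of 5 tested genes passed, and the 2 abundant ones had fold changes of opposite sign. Slc6a6 (TAUT), the carrier of the osmolyte taurine, was at 12.9, 12.2 and 12.7 FPKM in the Hnf3a libraries and 13.2, 13.4 and 14.3 FPKM in the pcDNA libraries. Slc6a8 (CRT), the creatine carrier, was at 4.44, 4.78 and 4.91 FPKM in the Hnf3a libraries and 4.20, 3.98 and 4.23 FPKM in the pcDNA libraries. Neither pair of groups overlapped. The log2 fold change was -0.13 for Slc6a6 (edgeR adjusted p = 0.115) and 0.18 for Slc6a8 (edgeR adjusted p = 0.163). The osmolyte carriers Slc5a3 and Slc6a6 thus had fold changes of opposite sign, with only Slc5a3 past the threshold. The third osmolyte carrier, Slc6a12 (BGT1, for betaine), had at most 8 counts. Slc6a13 was tested at under 0.1 FPKM, and the untested Slc6a4 and Slc16a12 had at most 13 and 9 counts.

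Monocarboxylate carriers were abundant, and none passed the test. Slc16a3 encodes MCT4, which exports lactate from glycolytic cells, and lies on the plus strand of chromosome 11 (GRCm38, 120948480 to 120958775). Its level was 46.6, 46.7 and 50.0 FPKM in the Hnf3a libraries and 51.4, 51.3 and 56.9 FPKM in the pcDNA libraries. The groups did not overlap, but by a small margin. The log2 fold change came to -0.16, SE 0.043, a ratio of 0.893 with an interval from 0.837 to 0.952 (edgeR adjusted p = 0.0617). It passed the threshold in 5 of 17 alternatives, among them leaving out Hnf3a replicate 3 and DESeq2's Wald test.

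Slc16a1 encodes MCT1, the widespread carrier of lactate, pyruvate and ketone bodies. It was at 49.1 ± 0.486 FPKM in the Hnf3a group and 48.4 ± 0.546 FPKM in the pcDNA group (SD, n = 3), with a ratio of 1.01 and an interval from 0.966 to 1.05 (edgeR adjusted p = 0.923). The summed level of the list averaged 97.4 ± 1.62 FPKM across the Hnf3a libraries and 102.3 ± 3.78 FPKM across the pcDNA libraries (SD, n = 3 each). Slc16a8 (MCT3) and the sodium-coupled carrier Slc5a8 (SMCT1) were tested at under 1 FPKM, and Slc16a7 (MCT2) had at most 9 counts.

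**Figure D4:**
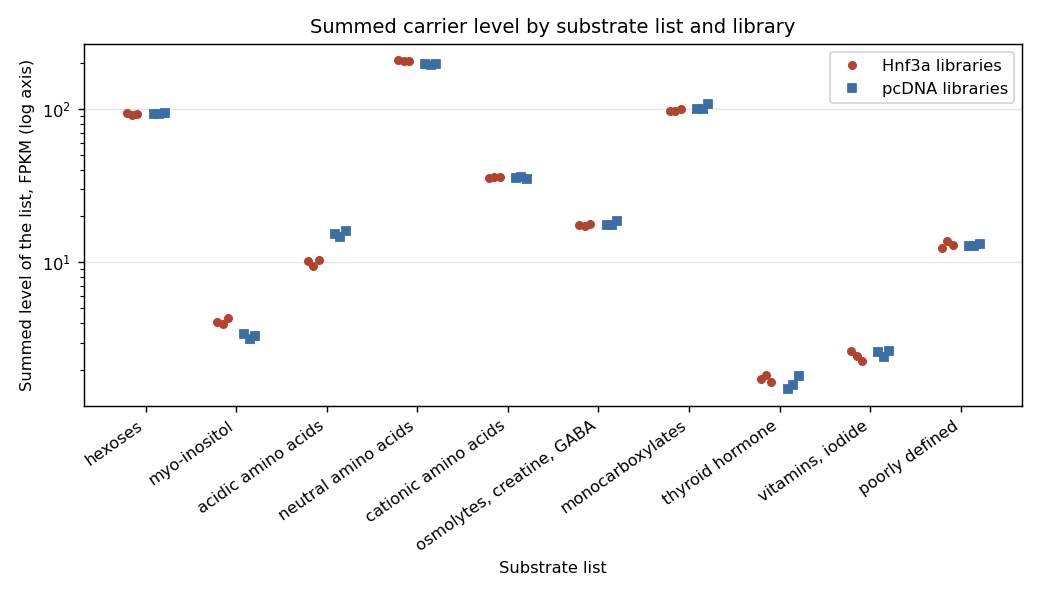
Summed level in FPKM (log axis) of the members of each of the 10 substrate lists, in each Hnf3a library (circles) and pcDNA library (squares). The groups lie clearly apart for acidic amino acid carriers (9.51 to 10.4 against 14.6 to 15.9 FPKM) and myo-inositol carriers (4.14 against 3.29 FPKM), each set by 1 gene, and close together for the other lists.

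The remaining lists held no called gene. Of the thyroid hormone and aromatic amino acid carriers, Slc16a10 (TAT1) was at 1.67 ± 0.107 and 1.54 ± 0.168 FPKM in the Hnf3a and pcDNA groups (SD, n = 3). Slc5a6 (SMVT), the sodium-coupled carrier of biotin and pantothenate, was at 2.32 ± 0.173 and 2.47 ± 0.155 FPKM (SD, n = 3), and the iodide carrier Slc5a5 (NIS) was at 0.112 ± 0.0359 and 0.0772 ± 0.0486 FPKM (SD, n = 3). Among carriers of poorly defined substrate, Slc16a13 was at 10.2 ± 0.447 and 10.3 ± 0.473 FPKM, and Slc16a6 at 1.96 ± 0.154 and 1.73 ± 0.149 FPKM (SD, n = 3). The edgeR adjusted p of these 5 genes ranged from 0.538 for Slc16a6 to 0.892 for Slc16a13. Slc16a13 and Slc16a11 lie 375 bases apart on opposite strands of chromosome 11, and Slc16a11 was far lower, at 0.544 FPKM over all libraries. Slc16a4 and Slc16a5 were also tested at under 1 FPKM, while Slc16a14, Slc6a21, Slc5a7 and Slc43a3 were not tested and had at most 14 counts. Across all lists, 12 carriers had a 95% interval of the log2 fold change within 0.2 of 0, among them Slc2a1, Slc16a1, Slc38a2, Slc7a5, Slc1a5, Slc7a1 and Slc7a6.

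A few low carriers were higher in Hnf3a replicates 2 and 3 than in the other 4 libraries, and none of those described here passed the test on all libraries. Slc1a2 (GLT-1), the glutamate carrier of astrocytes, had 16, 113 and 121 counts in Hnf3a replicates 1 to 3 and 32, 20 and 31 counts in pcDNA replicates 1 to 3. Slc6a11 (GAT3), a GABA carrier, had 0, 40 and 58 counts against 16, 7 and 0. The dopamine carrier Slc6a3 (DAT) had 4, 13 and 15 counts against 0 in each pcDNA library. For all 3 genes, Hnf3a replicate 1 was far below replicates 2 and 3. Slc6a11 and Slc6a3 were chosen for description after their values were seen.

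By a cut of at least 2 times every other library, with both replicates above the floor, Slc1a2, Slc6a11 and Slc6a3 stood out among the 70 carriers (4.29%), beside 169 of all 29595 genes (0.571%). For Slc1a2 the log2 fold change came to 1.48, SE 0.63 (edgeR adjusted p = 0.348). Without Hnf3a replicate 1 the log2 fold change of Slc1a2 was 1.96. That fit keeps only the Hnf3a libraries whose high values the cut had used, so it gives no separate support. In Hnf3a replicate 1 alone against the 3 pcDNA libraries it was -0.82, a value with no spread of its own in the Hnf3a arm. Slc6a11 had a log2 fold change of 1.95, SE 1.46 (edgeR adjusted p = 0.673), and Slc6a3 was not tested.

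The same 2 libraries held RNA of genes of other cell types. All 7 fibroblast markers, among them Col1a1, Col1a2 and Col3a1, were higher in Hnf3a replicates 2 and 3 than in the other 4 libraries, and their summed level was 1.97, 64.6 and 81.1 CPM in the Hnf3a libraries and 0.748 to 1.37 CPM in the pcDNA libraries. A list of 12 brain genes was drawn up once the uneven libraries were known, and 10 of them were higher in those 2 libraries. The summed brain level was 54.9, 64.9 and 63.5 CPM in the Hnf3a libraries and 53.0 to 54.8 CPM in the pcDNA libraries, nearly all of it from Mbp. Gad2, which makes GABA in neurons, showed counts of 0, 17 and 51 in Hnf3a replicates 1 to 3 and at most 3 in a pcDNA library, and the synaptic gene Snap25 had 29, 82 and 91 counts against 28 to 40. Slc17a7 and Mog did not follow this order. Slc17a7 had 9, 24 and 8 counts against 14, 0 and 12, and Mog had 0, 7 and 5 against 0, 4 and 8. Aqp4, counted among the 10, was under the floor in all libraries. Macrophage markers were at 27.9, 34.5 and 37.3 CPM in the Hnf3a libraries and 25.8 to 29.6 CPM in the pcDNA libraries, most of it from Cd68 and Csf1r. Of these 7 markers, 6 were higher in Hnf3a replicates 2 and 3 than in the other 4 libraries. Among them, Lyz2 had 0, 265 and 273 counts in Hnf3a replicates 1 to 3 against 16, 44 and 6. In the same way, 0 of 5 proximal tubule markers with values, 1 of 5 epithelial, 1 of 5 red blood cell and 2 of 5 endothelial markers were higher in those 2 libraries. The share of all genes with this order of libraries was not computed, so these counts have no background beside them. The part of these marker genes in the values of Slc1a2, Slc6a11 and Slc6a3 was not tested. Without these 2 libraries, 1 Hnf3a library remained against 3 pcDNA libraries, the spread came from the pcDNA libraries, and the lone library was assumed to vary like them. The log2 fold changes were then 0.32 for Slc5a3, 0.20 for Slc1a4 and -0.96 for Slc6a14, beside 0.32, 0.27 and -0.91 on all libraries. Slc1a1, Slc2a6 and Slc5a3 stayed past the threshold in this fit, and Slc1a4 and Slc6a14 missed it. For Slc1a4, the fewer libraries and the smaller fold change cannot be told apart as reasons.

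**Figure D5:**
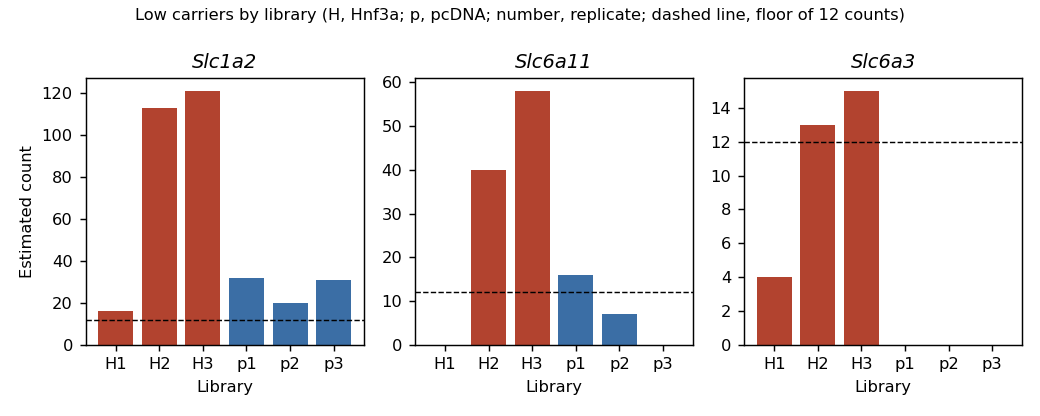
Estimated counts of Slc1a2, Slc6a11 and Slc6a3 in each library (H, Hnf3a; p, pcDNA; the number is the replicate), with the floor of 12 counts as a dashed line and a separate axis from 0 in each panel. Hnf3a replicates 2 and 3 are above the floor in every panel and above the other 4 libraries.

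Most partner genes of the carriers did not pass the test. The 28 partner genes are proteins that bind or regulate carriers, enzymes that use or make the cargo, and amino acid sensing genes, and of the 25 tested 1 rose and 1 fell. Of all 17824 tested genes, 3.17% were called, 1.04% higher and 2.13% lower. Slc3a2 (4F2hc), the heavy chain that brings Slc7a5 and Slc7a6 to the cell surface, was at 88.7 ± 0.486 FPKM in the Hnf3a group and 84.7 ± 2.04 FPKM in the pcDNA group (SD, n = 3), with a log2 fold change of 0.06 (edgeR adjusted p = 0.427). Bsg (basigin), the chaperone of Slc16a1 and Slc16a3, was at 170.9 ± 10.1 and 171.4 ± 3.65 FPKM (SD, n = 3), with a log2 fold change of -0.01 (edgeR adjusted p = 0.948). The Hnf3a libraries were all above the pcDNA libraries for Slc3a2, and the groups overlapped for Bsg.

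The gene that fell was Arrdc4, an arrestin-domain protein that, like Txnip, promotes the removal of GLUT1 from the cell surface. Its level was 53.6, 55.1 and 55.3 FPKM in the Hnf3a libraries and 62.2, 62.1 and 61.3 FPKM in the pcDNA libraries. The log2 fold change came to -0.19, SE 0.029 (edgeR adjusted p = 0.0024). Txnip itself was at 3.33 ± 0.219 and 2.55 ± 0.216 FPKM (SD, n = 3), and its log2 fold change of 0.38 missed the threshold (edgeR adjusted p = 0.0567). The gene that rose was Glul, glutamine synthetase, which makes glutamine from glutamate. Glul was at 3.93, 4.32 and 4.19 FPKM in the Hnf3a libraries and 3.36, 3.21 and 3.36 FPKM in the pcDNA libraries (log2 fold change 0.32, SE 0.072, edgeR adjusted p = 0.0281). Arrdc4 was called in all 17 alternatives and Glul in 7 of 17. Leaving out Hnf3a replicate 2 or 3 gave Glul an edgeR adjusted p of 0.142 or 0.072, and leaving out pcDNA replicates 1, 2 or 3 gave 0.0934, 0.132 or 0.081. Both genes had groups that did not overlap. The other 11 enzymes that use or make the cargo, among them the hexokinases Hk1 and Hk2, the lactate dehydrogenases Ldha and Ldhb, and Asns, did not pass the test. Neither did any of 8 amino acid sensing genes, with Atf4 at a log2 fold change of -0.08 (edgeR adjusted p = 0.55).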

How the data were processed

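Per the labels, strand-marked libraries of polyadenylated RNA carried unique molecular identifiers and were read from both ends with 150 bases. The submitters' processing notes name cutadapt 1.9, HISAT2 2.0.4, UMI-tools, StringTie 1.3.4d, DESeq2 and edgeR, with the build mm10. Which tool made the counts, and whether strand was used, is not given in the sources used here. The authors deposited an estimated count and an FPKM value per gene and library. Estimated counts were whole numbers, with an excess of genes at exactly 4 (1148 at 4, 680 at 3 and 378 at 5 in Hnf3a replicate 1), so 1 fragment was taken as about 4 counts and the floor was set at 12. Gene models came from GENCODE vM21, where 59 of the 70 carriers had identical coordinates, and promoter windows from RefSeq.

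Groups were compared two-sided with edgeR 4.0.16 in R 4.3.3 (filterByExpr, TMM, robust glmQLFit, glmQLFTest), with Benjamini-Hochberg adjustment over 17824 genes and a threshold of 0.05. The procedure was tested on simulated data. Alternatives were limma 3.58.1 (trend) on log2(FPKM + pseudocount), the pseudocount being 0.1, 1 or 0.01, DESeq2 1.42.0, other scalings and filters, counts divided by 4, the replicate number as a block, and leaving out libraries. Fold changes on the log2(FPKM + pseudocount) scale understate the change of low genes.

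The carriers, substrate lists and partner lists were chosen with earlier results of these data known, and the brain list was written after the data were seen. The genes named were carriers past the threshold, the 2 highest by mean FPKM in each list, at most 6 more with the smallest p under 0.05, called partners, Slc3a2 and Bsg. Other members are named with their values as examples. Every column of values belonged to a labelled sample. With 3 libraries per group, the smallest p of an exact permutation test is 0.1. The values of 2 tested carriers and 1 partner gene are not reported here, though all 3 stay in the counts, sums and medians.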

Additional observations from a re-analysis of the deposited data

How the results depend on the processing

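Slc1a1 and Slc2a6 passed the threshold under all 17 alternatives, and none of the 5 called carriers changed direction. The number of carriers called (5 on all libraries, 2 higher and 3 lower) was 2, 0 of them higher, with limma on FPKM at a pseudocount of 0.1, of 1 and of 0.01, where 2 substrate lists held a called gene in place of 4 and 1 partner gene was called in place of 2. DESeq2's Wald test called 7 carriers, 5 of them lower, and 13 other solute carrier genes in place of 8. Without both Hnf3a replicates 2 and 3, a fit with 1 Hnf3a library whose spread is taken from the 3 pcDNA libraries, 3 carriers (1 higher) and 4 other solute carrier genes were called. Leaving out 1 library at a time gave 3 to 5 carriers (1 to 3 higher, 2 to 4 lower) in 3 to 5 lists, 1 to 3 partners and 7 to 10 other solute carrier genes. Over all genes, these fits called 263 to 643, or 1.44% to 3.47% of those tested. The count of carriers was 3 without Hnf3a replicate 2 and without pcDNA replicate 2, where Slc1a4 and Slc6a14 were lost. In each of these fits 1.44% of all tested genes were called, beside 3.17% on all libraries. The median log2 fold change of the carriers, 0.0586, was 0.0884 with no filter, 0.0306 with a stricter filter of 1 FPKM, 0.0264 with counts divided by 4, 0.0250 with limma at a pseudocount of 1, 0.0278 with DESeq2's Wald test, -0.00797 without both Hnf3a replicates 2 and 3, and 0.0261 to 0.0675 when 1 library was left out. Among the other carriers named, 4 with no call changed sign. Without both Hnf3a replicates 2 and 3, the log2 fold change was -0.821 for Slc1a2, 0.000997 for Slc7a1, -0.0304 for Slc7a6 and 0.0279 for Slc5a6. With 1 library left out, it ranged from -0.0290 to 0.00112 for Slc7a1 and from -0.00683 to 0.0420 for Slc7a6. Over all genes, 565 were called on all libraries, 231 to 245 by limma and 824 by DESeq2's Wald test.

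The replicate numbers did not pair the libraries: deviations of same-numbered libraries correlated at -0.0411, -0.0102 and 0.00998, and 1 of the 6 libraries correlated best with its own number. With the number as a block, 463 genes were called in all, 5 carriers (Slc16a3 in, Slc6a14 out, edgeR adjusted p = 0.0198 and 0.0608) and 1 partner gene. Depth limits the 23 carriers with too few counts to be tested on all libraries: they had at most 19 counts, and none passed when the filter was dropped.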
